A study of Gallus gallus with 3 samples.

Results

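The genes described here are those for the proteins of the cytoplasmic ribosome, measured in single cells of the forelimb field of chicken embryos. They were chosen by symbol alone, as every symbol that begins with RPL or RPS followed by a digit, and RPLP0, RPLP1 and RPLP2, without the RPS6K kinases. This gave 72 of the 16748 genes listed. The files hold no RPSA under that symbol. They hold RPSAP58, to which RefSeq gives RPSA as a synonym; it is not counted among the members.

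Tissue flanking the somites, which gives rise to the wing, was dissected from wild-type embryos at Hamburger-Hamilton (HH) stages 10 (embryonic day 1.5), 14 (day 2.5) and 18 (day 3.5). Each stage was 1 library of pooled male and female embryos with no treatment, and the number of embryos in a pool is not given in the sources used here. The libraries held 1210, 1313 and 739 cells and 11855255, 11267879 and 6557527 UMIs (unique molecular identifiers, 1 for each captured RNA), and 1 cell barcode occurred in more than 1 library. No stage has a replicate, so no test between stages was made, and intervals in parentheses are exact 95% intervals that cover counting error only.

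A ribosome is built from a small subunit, which reads the mRNA, and a large subunit, which joins the amino acids. Each subunit is a scaffold of ribosomal RNA with its own set of proteins, and the proteins of the stalk on the large subunit recruit translation factors. Ribosomal protein mRNAs are known for their abundance and for a pyrimidine run at their start that ties their translation to nutrient and growth signals. In mouse and human, loss of 1 copy of some of these genes gives tissue-restricted defects, among them axial skeletal defects for RPL38 in mouse and Diamond-Blackfan anaemia, at times with limb anomalies, for RPS19, RPL5, RPL11 and others in human.

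By role, 38 members code for large subunit proteins and held 53.3% of the members' UMIs, 26 for small subunit proteins with 39.0%, and 3 for stalk proteins with 6.84%. A further 3, RPL22L1, RPS27L and RPL3L, are paralogs of a ribosomal protein gene and held 0.673%. RPS19BP1, a partner of RPS19, and RPL7L1, a nucleolar assembly factor, match the symbol rule but are not proteins of the ribosome, and held 0.179%. In this annotation RPL39L, RPL26L1 and RPS4Y1 carry the RefSeq synonyms RPL39, RPL26 and RPS4, so they were read as the ordinary large and small subunit genes. RPL10, RPL26, RPL36A, RPL39 and RPSA were not analysed here under those symbols.

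Members were among the most abundant mRNAs of every library. They took 6910659 of 29680661 UMIs, or 23.3%. Of the 10 most counted genes 7 were members, of the 100 most counted 61, and 66 members stood above 1000 CPM (UMIs per 1000000 UMIs of the same cells). The kit tags the 3' end of each molecule once, so levels of different genes were compared as UMIs with no division by length. RPLP1, a stalk protein gene, was the most counted of all genes at 9869 CPM over all cells. It was followed among members by the small subunit genes RPS19 at 7780.3 CPM and RPS20 at 6741 CPM, the large subunit genes RPL21 at 6457 CPM and RPL23 at 6295 CPM, and RPS26 at 5581 CPM. The stalk gene RPLP2 at 5408 CPM and the large subunit genes RPL39L at 5329, RPL37A at 5041 and RPL34 at 5013 CPM completed the 10 highest, which together held 27.3% of the members' UMIs.

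The 3 stalk genes were far from equal in UMIs. Whether each gene was captured to the same degree was not tested. RPLP0, whose protein anchors the stalk to the ribosome, stood at 647 CPM over all cells against 9869 for RPLP1 and 5408 for RPLP2. Every member below RPLP0 was one that is not an ordinary ribosomal protein. RPL7L1 stood at 330.3 CPM, RPS27L at 140.2 CPM, RPS19BP1 at 86.1 CPM and RPL3L, a paralog known from mammalian heart and skeletal muscle, at 0.438 CPM with 13 UMIs in all. In lateral plate and limb mesenchyme RPL3L had 0 UMIs at HH10, which allows up to 0.596 CPM at 3 counts, and 3 and 2 UMIs at HH14 and HH18. The other 71 members were measured in each comparison of stages.

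**Figure D1:**
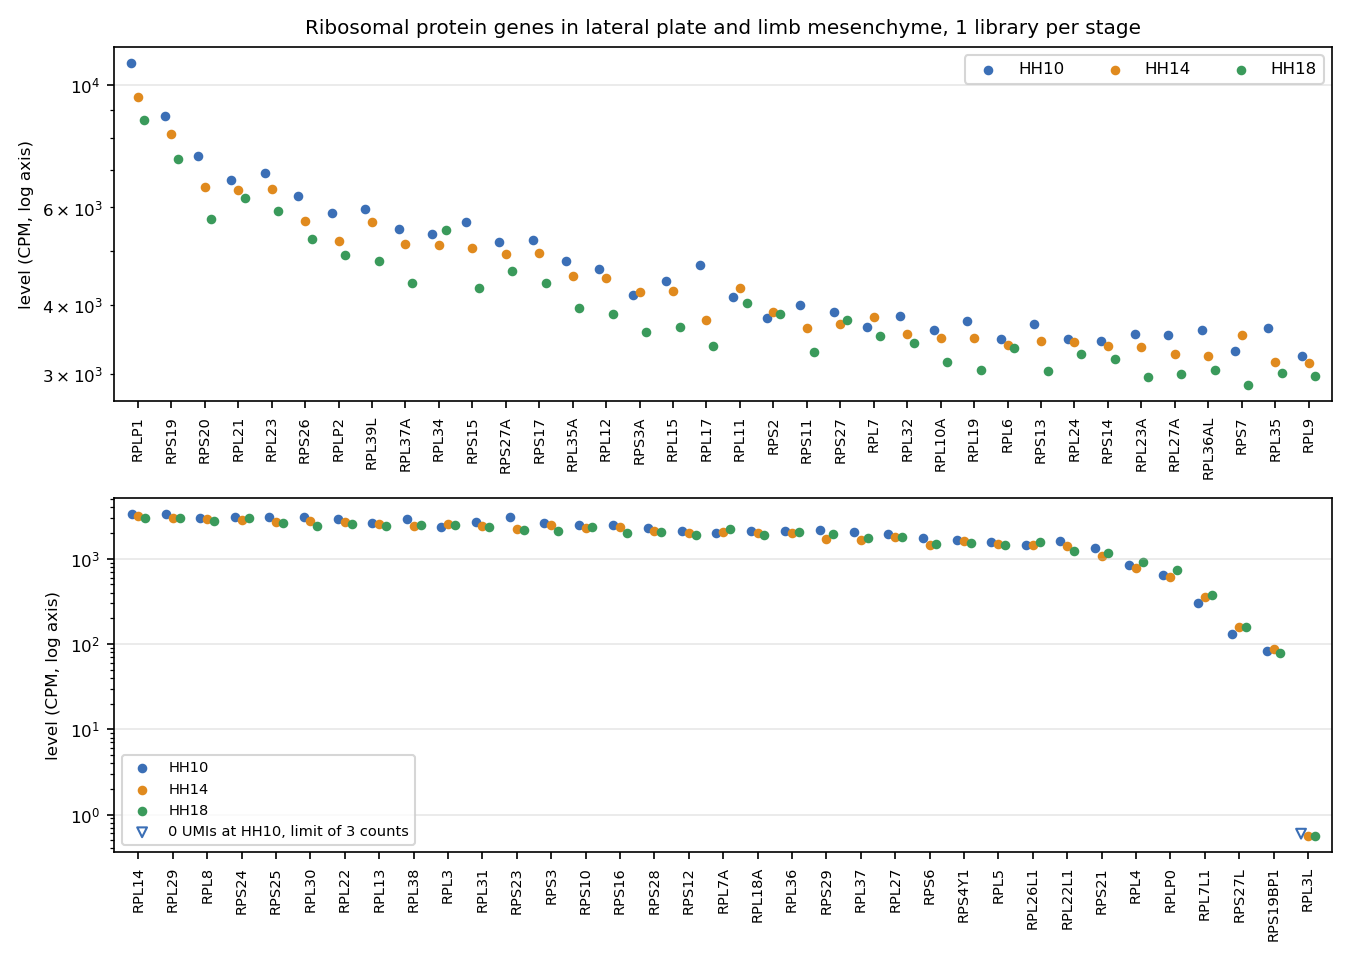
Level of 71 of the 72 members (CPM, log axis, 2 panels in descending order over all cells) in lateral plate and limb mesenchyme, with 1 point for each library. RPLP1 heads the order at 10929.5, 9485 and 8635 CPM, most members lie above 1000 CPM, and RPL3L, with 0 UMIs at HH10 drawn at its limit of 0.596 CPM, lies at the end.

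Lateral plate and limb mesenchyme, the sheet of mesoderm that gives the limb and its derivatives, is the union of 7 annotated classes with 599, 598 and 325 cells. In the 13 class and library combinations of this population, 5 or 6 of 6 marker genes (PRRX1, TBX5, TWIST1, HAND2, FOXF1 and PDGFRA) were detected. Their summed level was 640 to 3440 CPM. In 18 other combinations, with amnion left out, 3 to 6 were detected and the sum was 15.6 to 2047 CPM, so the ranges overlap. Amnion had 6 of 6 detected, with a sum of 2376 CPM in the HH14 library and 2573 CPM in the HH18 library. These sums lie inside the range of the population, so the markers do not set amnion apart from it. Median depth in the population was 6990, 7094.5 and 8236 UMIs a cell. The share of members in a cell was lower in deeper cells, and the share of cells from male embryos differed between libraries.

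The first comparison sets the members' share of mRNA in this population side by side at the 3 stages. The population is made of different classes at each. At HH10 undifferentiated clusters 7 and 1 were 427 and 132 of its 599 cells. At HH14 splanchnic lateral plate with 215 cells and somatopleure with 165 were the largest classes of 598 cells, and at HH18 limb bud mesenchyme with 180 and somatopleure with 75 of 325. No class of the population had 20 or more cells at both HH10 and HH18. The members took 25.1% of the UMIs of lateral plate and limb mesenchyme at HH10 (25.02 to 25.10). They took 23.3% in the HH14 library (23.31 to 23.38) and 21.7% in the HH18 library (21.68 to 21.77). The order was the same with each cell weighted equally, at 26.1% ± 3.23 (SD over 599 cells), 24.3% ± 3.61 (598 cells) and 22.9% ± 3.07 (325 cells), and single cells of the stages overlapped widely, from 13.2% to 33.9% at HH10, 8.89% to 33.5% at HH14 and 8.74% to 32.5% at HH18. The log2 ratio of the share was -0.10 for HH14 over HH10 (-0.11 to -0.10), -0.10 for HH18 over HH14 and -0.21 for HH18 over HH10. These are differences between 3 libraries, and stage, class makeup, pool and library cannot be told apart. A share of UMIs also says nothing of the number of mRNA molecules in a cell.

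Depth moved with the share within each library. In HH10 lateral plate and limb mesenchyme the members took 27.8% of UMIs in cells with 2000 to 5000 UMIs and 22.1% in cells with more than 20000, with 25.2% and 21.0% at HH14 and 24.8% and 20.2% at HH18. In cells with 5000 to 10000 UMIs the shares were 25.8%, 24.8% and 23.0%, a log2 ratio of -0.17 for HH18 over HH10 against -0.21 in all cells. Spearman's rho between share and depth over cells was -0.52, -0.43 and -0.54 in the 3 libraries. These are descriptions over cells that share a library.

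Most members were slightly lower at each later stage, and few were 25% higher or 20% lower, the marks of size used here. From HH10 to HH14 60 of 71 members were lower by any amount, 3 were at least 20% lower and 0 at least 25% higher, while over all 9166 measured genes (30 or more UMIs) 14.2% were that much lower and 21.7% higher. From HH14 to HH18 55 were lower, with 0 past either mark against 11.9% lower and 24.5% higher over all genes. From HH10 to HH18 62 were lower, 9 of them by at least 20%, and RPL7L1 was higher with a log2 fold of 0.33, against 15.3% lower and 34.2% higher over all genes. Among genes with 1000 or more UMIs, which are closer to the members in depth, the shares called were 7.04% lower and 7.81% higher for HH14 over HH10, 5.56% and 7.64% for HH18 over HH14, and 12.1% and 17.3% for HH18 over HH10. Of these genes 46.5%, 47.5% and 48.2% were lower by any amount for the 3 pairs of stages in turn. No member passed 2-fold, which over all measured genes 4.34% did upward and 2.57% downward for HH14 over HH10, 3.71% and 2.99% for HH18 over HH14, and 8.18% and 4.17% for HH18 over HH10.

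The median log2 fold of the members was -0.09 for HH14 over HH10, -0.08 for HH18 over HH14 and -0.19 for HH18 over HH10, beside 0.05, 0.09 and 0.14 over all measured genes and 0.02, 0.01 and 0.01 over genes with 1000 or more UMIs. With median-of-ratios scaling, which puts the median of all genes at 0, 36 members in place of 9 were at least 20% lower at HH18 than at HH10, and 0 in place of 1 at least 25% higher. As a share of the members' own UMIs, 0 were that much lower and 5 higher. The shares of all genes past these marks were not counted under either of these scalings, so the counts describe the members only.

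Among the small subunit genes, RPS23, whose protein sits in the decoding centre, had the lowest log2 fold from HH10. It stood at 3083, 2265 and 2151 CPM at the 3 stages in turn, 1.36-fold higher at HH10 than at HH14 (1.33 to 1.39) and 1.43-fold higher than at HH18 (1.39 to 1.47). RPS23 is Z-linked and the mix of male and female cells differed between libraries; its log2 folds within male and within female cells were -0.16 and -0.19 for HH14 over HH10 and -0.19 and -0.16 for HH18 over HH10, none of them 20% lower. RPS15 went from 5659.8 to 5078 and 4294 CPM, a log2 fold of HH18 over HH10 of -0.40 (-0.43 to -0.37). In cells matched for depth in 4 ranges the fold of RPS15 was between -0.30 and -0.24, short of 20% lower in each. RPS20 and RPS16 were also lower at each later stage, at 7432, 6544 and 5715 CPM for RPS20 and at 2520.2, 2345 and 1997 CPM for RPS16. At matched depth RPS16 was 20% lower at HH18 than at HH10 in 4 of 4 ranges and RPS20 in 1 of 4. The members RPS7, RPS3A and RPS3 kept near their HH10 level at HH14 and were lower at HH18: RPS7, needed to process small subunit RNA, stood at 3299.7, 3527 and 2866 CPM, with the lowest log2 fold of HH18 over HH14 of all members, -0.30 (-0.33 to -0.26).

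A few small members had their lowest value in the HH14 library. RPS29 stood at 2164, 1699.9 and 1946 CPM, 1.27-fold higher at HH10 than at HH14 (1.24 to 1.31) and 1.14-fold higher at HH18 than at HH14 (1.11 to 1.18). RPS21 stood at 1335, 1088 and 1166 CPM, and RPL38, which in mouse is needed for axial skeletal patterning, at 2924, 2412 and 2515 CPM. Their log2 folds of HH14 over HH10 were -0.29 for RPS21 and -0.28 for RPL38.

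Among the large subunit genes, RPL17, at the exit of the peptide tunnel, stood at 4720.0, 3759 and 3378 CPM, 1.26-fold higher at HH10 than at HH14 (1.23 to 1.28) and 1.40-fold higher than at HH18 (1.37 to 1.43). RPL17 is Z-linked too, and within male and within female cells its log2 fold was -0.03 and -0.09 for HH14 over HH10 and -0.13 in both for HH18 over HH10, so that neither call was kept within a sex. RPL30 went from 3079.9 to 2788 and 2401 CPM and RPL37A from 5482 to 5154 and 4383 CPM; at matched depth they were 20% lower at HH18 than at HH10 in 2 and 1 of 4 ranges. RPL35 stood at 3643, 3152 and 3019.8 CPM and RPL39L at 5962, 5659.8 and 4806 CPM. Against this run of lower values, RPL7A was slightly higher at each later stage, at 2005, 2062 and 2244 CPM, RPL26L1 stood at 1458, 1464 and 1593 CPM, and RPL4 at 845, 785 and 909 CPM.

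The large subunit genes RPL3, RPL7, RPL34 and RPL11 stayed close to their HH10 level. RPL3, at the peptidyl transferase centre, stood at 2340.2, 2528 and 2486 CPM, and RPL11, which with RPL5 carries the 5S RNA and restrains MDM2, at 4144, 4288 and 4043 CPM. RPL5 stood at 1592, 1477 and 1451 CPM and RPL24, a patterning gene in mouse, at 3476, 3431 and 3265 CPM. The anaemia genes RPS19 and RPS26 stood at 8756, 8137 and 7338 CPM and at 6299, 5668 and 5274 CPM.

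The stalk genes parted. RPLP1 went from 10929.5 to 9485 and 8635 CPM, a log2 fold of HH18 over HH10 of -0.34 (-0.36 to -0.32). In cells with 2000 to 5000, 5000 to 10000, 10000 to 20000 and more than 20000 UMIs the log2 fold of RPLP1 was -0.23, -0.14, -0.24 and -0.17, so RPLP1 was not 20% lower in any range of depth. RPLP0 stood at 643, 617 and 730.1 CPM, the member with the highest log2 fold of HH18 over HH14 at 0.24 (0.17 to 0.32). RPLP2 was at 5869, 5222 and 4932 CPM.

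Sex of the embryos was a second axis. In birds males carry a pair of Z chromosomes and females a Z and a W, and most Z-linked genes are not brought to equal output in the sexes. RefSeq (assembly bGalGal1.mat.broiler.GRCg7b) puts 4 members on Z, the small subunit genes RPS6, whose protein is phosphorylated by the RPS6K kinases downstream of mTOR, and RPS23, and the large subunit genes RPL17 and RPL37. Cells were called female at 20 or more UMIs per 10000 of HINTW, a multicopy W-linked gene, and male below 5, with limits chosen after the values were seen. This gave 852 male and 315 female cells at HH10, 520 and 731 at HH14, and 218 and 496 at HH18, and left 43, 62 and 25 cells undecided. Male cells were 73.0%, 41.6% and 30.5% of the called cells in the 3 libraries.

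RPS6, RPS23, RPL17 and RPL37 were higher in male cells of every library. RPL17 stood at 5408 CPM in male and 2781 CPM in female cells at HH10, at 5206 and 2706 CPM at HH14, and at 4799.6 and 2579.5 CPM at HH18, folds of 1.95, 1.92 and 1.86. RPS23 stood at 3369 and 1782 CPM, 3039.6 and 1643 CPM, and 3149.6 and 1694 CPM, folds of 1.89, 1.85 and 1.86. RPS6 stood at 2104 and 1128 CPM, 2044 and 1078 CPM, and 2196 and 1182 CPM, folds of 1.87, 1.90 and 1.86. For these 3 genes the lowest male value lay above the highest female value. The share of all genes for which this holds was not counted.

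RPL37 had a smaller gap. It stood at 2214 CPM in male and 1633 CPM in female cells at HH10, at 1947 and 1559 CPM at HH14, and at 2221 and 1704 CPM at HH18, log2 folds of 0.44, 0.32 and 0.38. Its lowest male value also lay above its highest female value, again with no count over all genes. The other 67 measured members had log2 folds of male over female cells between -0.15 and 0.08 at HH10, between -0.11 and 0.21 at HH14 and between -0.24 and 0.07 at HH18, and 0 of them were 25% higher or 20% lower. Over all measured genes 13.6%, 14.4% and 13.9% were that much higher in male cells and 12.2%, 8.24% and 12.0% that much lower. The ends of these ranges were RPL22L1 at HH14 (1525 and 1319 CPM in male and female cells) and RPS19BP1 at HH18 (74.3 and 87.6 CPM).

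The summed counts of male and female cells of each library were compared with edgeR's quasi-likelihood test, with library as a block, across 11071 genes. Of the 71 members tested, 4 were higher in male cells at a Benjamini-Hochberg adjusted p under 0.05 and 0 lower, against 2.3% higher and 0.397% lower over all genes. An unadjusted p under 0.05 in either direction was found for 6 members, and the share of all genes at that limit was not counted. DESeq2 gave 4 members higher and 0 lower, against 131 higher and 29 lower of all 11071 genes. The log2 fold was 0.92 for RPL17 (SE 0.0362, adjusted p 2.98e-11), 0.89 for RPS23 (SE 0.0387, adjusted p 1.32e-10), 0.89 for RPS6 (SE 0.0410, adjusted p 2.57e-10) and 0.37 for RPL37 (SE 0.0429, adjusted p 2.33e-05), each higher in male cells in 3 of 3 libraries. Male and female cells of a library come from different embryos of 1 pool, so the test compares 6 sums of pooled embryos. The spread behind these p-values is what remains among the 6 sums once library is fitted, and edgeR draws on other genes to estimate it. The p-values therefore do not rest on the spread of a gene among its own 6 sums alone. Without the library block RPL37 had an adjusted p of 0.163. Without the HH10 library RPL11, RPL32, RPL35 and RPL37A were also called, lower in male cells, as were 92 of all 10442 genes tested.

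The gap of RPS6, RPS23 and RPL17 lay in the upper part of that of other Z-linked genes. Among the 75, 54 and 28 other Z genes with 1000 or more UMIs in the libraries, the median log2 fold of male over female cells was 0.76, 0.82 and 0.80, with 16 of 75, 3 of 54 and 5 of 28 below RPL37. Genes not on Z had a median of -0.01, -0.01 and 0.01. The share of UMIs held by all members was close between the sexes, at 24.3% in male and 23.5% in female cells at HH10, 23.4% and 23.2% at HH14, and 22.2% in both at HH18.

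**Figure D2:**
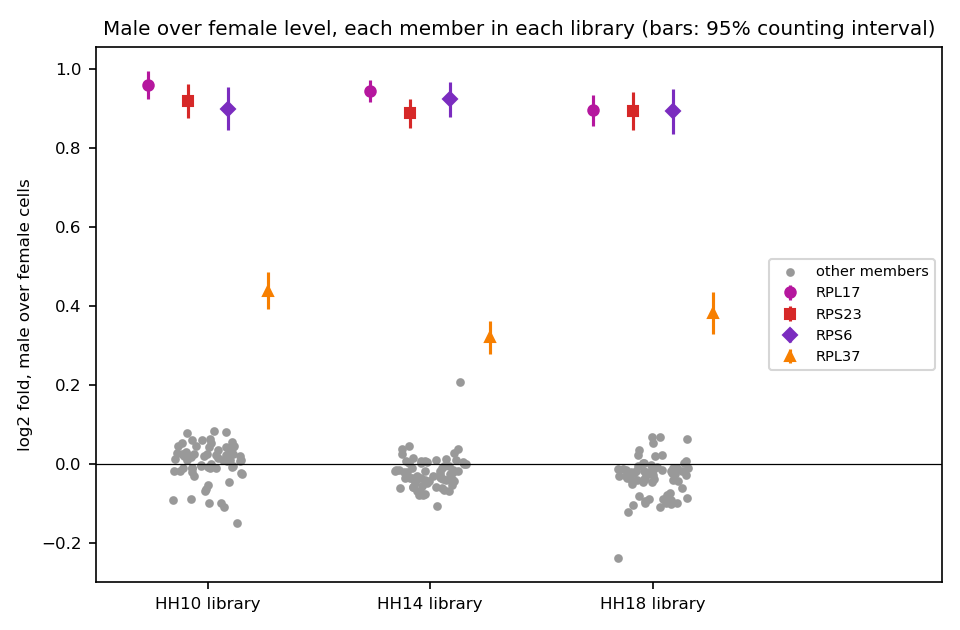
Log2 fold of male over female cells for each measured member in each library, with grey points for the 67 other members and symbols with counting intervals for the Z-linked members. RPL17, RPS23 and RPS6 lie near 0.9 in all 3 libraries and RPL37 between 0.32 and 0.44, above the range of -0.24 to 0.21 of the rest.

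The stage folds of these 4 members stand beside a changed mix of sexes. In lateral plate and limb mesenchyme male cells were 72.3%, 42.7% and 31.5% of the called cells of the 3 libraries. The log2 fold of HH14 over HH10 was -0.44 for RPS23 over all cells of the population, -0.16 in male cells alone (-0.20 to -0.12) and -0.19 in female cells alone (-0.27 to -0.12). It was -0.33 for RPL17 over all cells, -0.03 in male cells (-0.06 to 0.00) and -0.09 in female cells (-0.14 to -0.03). For RPS6 it was -0.26 over all cells, 0.03 in male cells (-0.03 to 0.08) and -0.05 in female cells (-0.14 to 0.05).

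For RPL37 the same fold was -0.29 over all cells and -0.16 in both male and female cells. From HH10 to HH18 the log2 fold of RPS6 was -0.22 over all cells and 0.15 and 0.07 in male and female cells, and that of RPL17 was -0.48 over all cells and -0.13 in each sex. Within a sex none of these 4 was 20% lower at HH14 or HH18 than at HH10, and RPS6 was higher at HH18 than at HH14 in both sexes, with log2 folds of 0.12. Over all 71 members the median log2 fold of HH18 over HH10 was -0.21 in male and -0.17 in female cells, beside -0.19 in all cells.

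**Figure D3:**
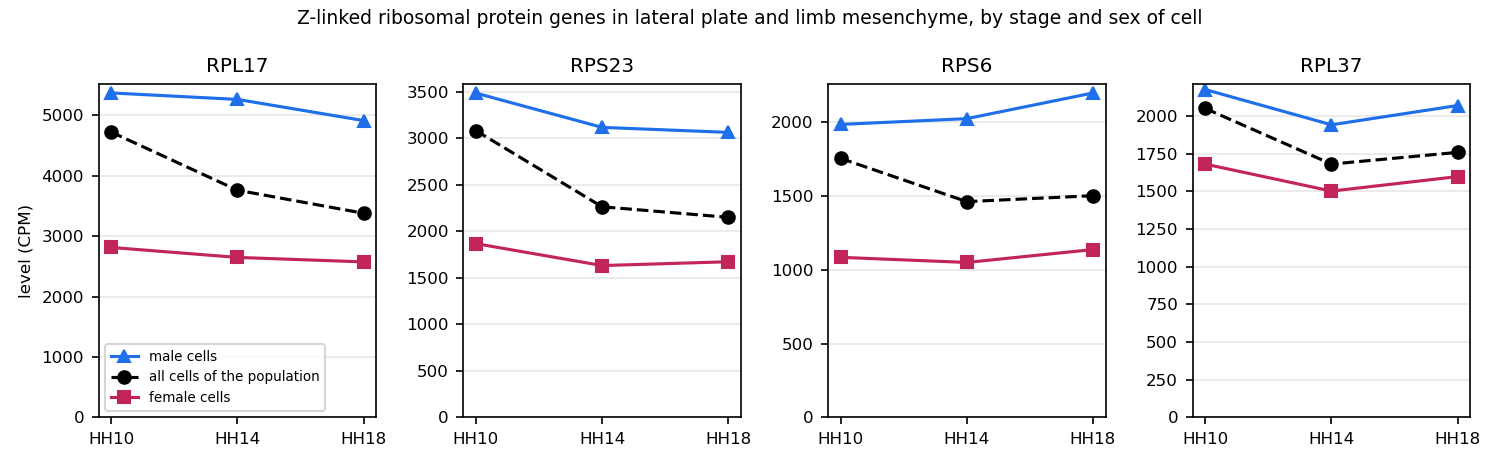
Level (CPM, axis from 0) of the 4 Z-linked members in lateral plate and limb mesenchyme of each library, with triangles for male cells, squares for female cells and circles for all cells of the population. The circles lie near the male line at HH10, where 72.3% of called cells are male, and near the female line at HH18, where 31.5% are.

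Annotated classes differed in the members' share, with most classes close together and a single class far below. Over 33 combinations of class and library with 20 or more cells, the share ran from 20.6% in extraembryonic lateral plate at HH14 to 26.7% in endoderm at HH14, apart from 10.9% (10.8 to 11.1) in the HH10 class annotated as primitive streak. The highest values after endoderm were 26.2% in undifferentiated lateral plate cluster 7 at HH10 and 25.8% and 25.6% in the c2 ectoderm at HH10 and HH14. Limb bud mesenchyme was at the low end, with 21.6% at HH14 and 21.2% at HH18, beside blood vessels at HH18 with 21.4%. Limb bud mesenchyme and extraembryonic lateral plate were also deep classes, with medians between 10313.5 and 12560.0 UMIs a cell. Primitive mesoderm, in the HH10 library, had a median of 14196 UMIs and a share of 23.1%. The part of depth in the shares of these classes was not tested.

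Inside most classes, too, the share was lower at HH18 than at HH14. This was so in 8 of 9 classes with 20 or more cells in both libraries, with differences between -1.85 points in the c2 ectoderm and -0.38 points in somatopleure, and in the c11 ectoderm it was 23.8% in both, with an interval of the ratio that spans no change. In limb bud mesenchyme it was 21.6% at HH14 and 21.2% at HH18, a smaller step than the 23.3% to 21.7% of the population as a whole. From HH10 to HH14 the share was lower in 3 of 6 classes and higher in 2, by 2.59 points in endoderm and 0.92 points in undifferentiated lateral plate cluster 1. Only the c2 ectoderm, blood vessels and low count cells, none of them lateral plate or limb, could be compared between HH10 and HH18, and the share was lower at HH18 in each.

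**Figure D4:**
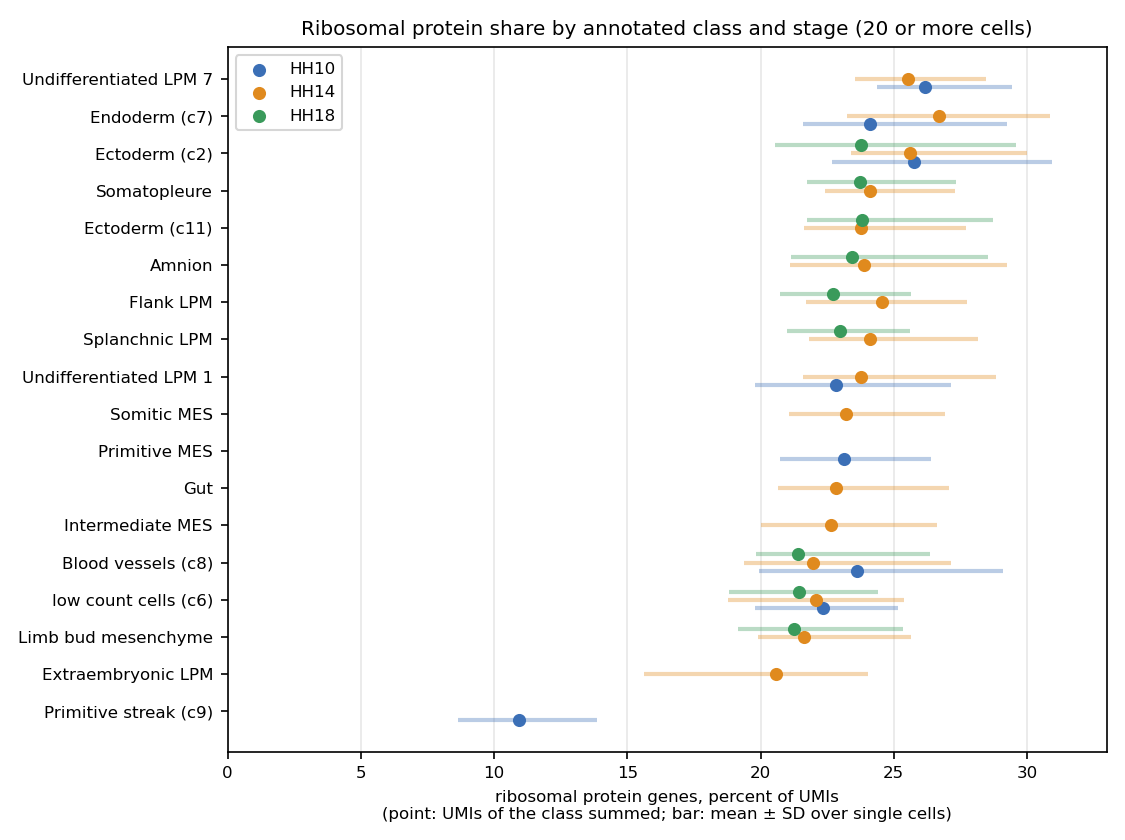
Share of UMIs held by the 72 members in each annotated class with 20 or more cells, with points for the summed UMIs of the class in a library and bars for the mean ± SD over its cells. All points lie between 20.6% and 26.7% except primitive streak at HH10, at 10.9%.

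The primitive streak class at HH10 had 29 cells, and 70 of its 71 measured members were at least 20% lower than in the other 1181 HH10 cells, 53 of them past 2-fold, against 20.8% and 9.42% of all 9495 measured genes. The class was drawn by the authors from the same values, so this is a description. The median log2 fold was -1.17 over the members and 0.49 over all genes. RPL34 and RPL37 stood lowest relative to other cells, at 1268 CPM against 4918 CPM and at 570.0 CPM against 2074 CPM. RPLP1 was less low, at 7384 CPM against 10050.5 CPM, and RPL7L1 stood at 317 CPM against 315 CPM.

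Of genes outside the list, chosen with earlier results of these data known, NPM1, a nucleolar chaperone, stood at 3917 CPM in the class and 3966 CPM in other HH10 cells, and NCL, nucleolin, at 2695 and 2592 CPM. The elongation factor gene EEF1A1 stood at 4225 and 5838 CPM, 0.724 of the other cells, beside 0.735 for RPLP1 and 0.715 for RPLP0. PPIA, also outside the list, was as low as some members, at 4615 and 8220 CPM. That is 0.562 of the other cells (0.528 to 0.596), beside 0.561 for RPL3. HMGB1 went the other way, at 3801 and 2415 CPM, 1.57-fold (1.47 to 1.68). TBXT stood at 60.0 CPM in the class and 18.4 CPM in other HH10 cells, 3.26-fold (1.75 to 5.59), CDX4 at 480.0 and 340.2 CPM, 1.41-fold (1.16 to 1.70), and MSGN1 at 68.6 and 44.9 CPM, 1.53-fold with an interval that spans 1 (0.866 to 2.50). These 3 markers summed to 609 CPM in the class and 671 CPM in HH10 primitive mesoderm, while 5 endothelial markers summed to 523 and 27.8 CPM, with 4443 CPM in HH10 blood vessels. The class also had a median of 4.48% mitochondrial UMIs a cell against 2.24%, with MT-CO1 2.15-fold and CYTB 2.34-fold higher, and a median of 4631 UMIs against 7865. Of its 29 cells 18 had HINTW between the limits for male and female, against 25 of the other 1181. The part of these in the low share was not tested.

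Single members varied by class more than the sum. The fold between the highest and lowest class had a median of 2.57 over the 71 members, and of 1.50 with the primitive streak class left out. With it, 66 members were lowest there. The share of all genes lowest in that class was not counted. The 8 members with the widest range were RPS27L, RPS20, RPL34, RPL37, RPL11, RPL39L, RPS21 and RPL26L1. Without that class their ranges were 7.35-fold for RPS27L and 5.80-fold for RPS20, then 2.72-fold for RPL37, 2.08-fold for RPS21, 1.95-fold for RPL11, 1.63-fold for RPL34, 1.59-fold for RPL39L and 1.35-fold for RPL26L1.

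RPS20, a small subunit gene, stood apart in endoderm, the germ layer that lines the gut. It was at 15237 CPM in 28 endoderm cells at HH10, 25480.5 CPM in 31 cells at HH14 and 14329.9 CPM in 4 cells at HH18, against 6910.3, 6532 and 5880.4 CPM in all other cells, folds of 2.20 (2.13 to 2.28), 3.90 (3.79 to 4.01) and 2.44 (2.22 to 2.66). Single endoderm cells at HH14 ran from 15044 to 48242 CPM with a median of 25447, and 1 of 1282 other cells lay above that median. The next class after endoderm, undifferentiated lateral plate cluster 7 at HH10, stood at 8045 CPM.

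With RPS20 left out, the members' share in endoderm at HH14 was 24.2% in place of 26.7%, below the 24.8% of the c2 ectoderm and of undifferentiated cluster 7 counted in the same way. The label of the class held at both stages by most markers. FOXA2 stood at 145 CPM in endoderm and 1.63 CPM in other cells at HH10 and at 111 and 1.54 CPM at HH14, APOA1 at 1222 and 19.2 CPM and at 608 and 78.3 CPM, and TTR at 280 and 6.70 CPM and at 5518 and 79.8 CPM. SOX17 stood at 261 CPM at HH10 and at 0 at HH14.

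RPS27L, the paralog of RPS27 that in human cells is a target of p53, was also highest in endoderm. Endoderm cells had 349.9 CPM in the HH10 and 603 CPM in the HH14 library, against 115 and 148 CPM in other cells, folds of 3.04 (2.38 to 3.84) and 4.08 (3.37 to 4.89). The 4 endoderm cells at HH18 gave 294 against 150 CPM, a fold of 1.96 with an interval that spans 1 (0.94 to 3.63). Single cells overlapped more than for RPS20. At HH10 118 of 1182 other cells lay above the endoderm median of RPS27L, at HH14 55 of 1282 and at HH18 159 of 735. The other widely ranging members peaked elsewhere. RPL11 at 6328 CPM, RPL34 at 6789 CPM, RPL39L at 6792 CPM and RPS26 at 6998 CPM were highest in somatopleure at HH18. That class was shallow, with a median of 3395 UMIs a cell. In all HH18 lateral plate and limb mesenchyme cells with 2000 to 5000 UMIs, these genes stood at 6099, 7240, 6750 and 8206 CPM in turn. The part of depth in their peak was not tested. RPL37, which is Z-linked, was highest at 2896 CPM in the c2 ectoderm at HH10, where 78.5% of called cells were male. The part of sex in this peak was not tested. RPS21 was highest at 1617 CPM in blood vessels at HH10. RPLP1 was highest in the c2 ectoderm at each stage, at 12777, 13837.5 and 14449 CPM.

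**Figure D5:**
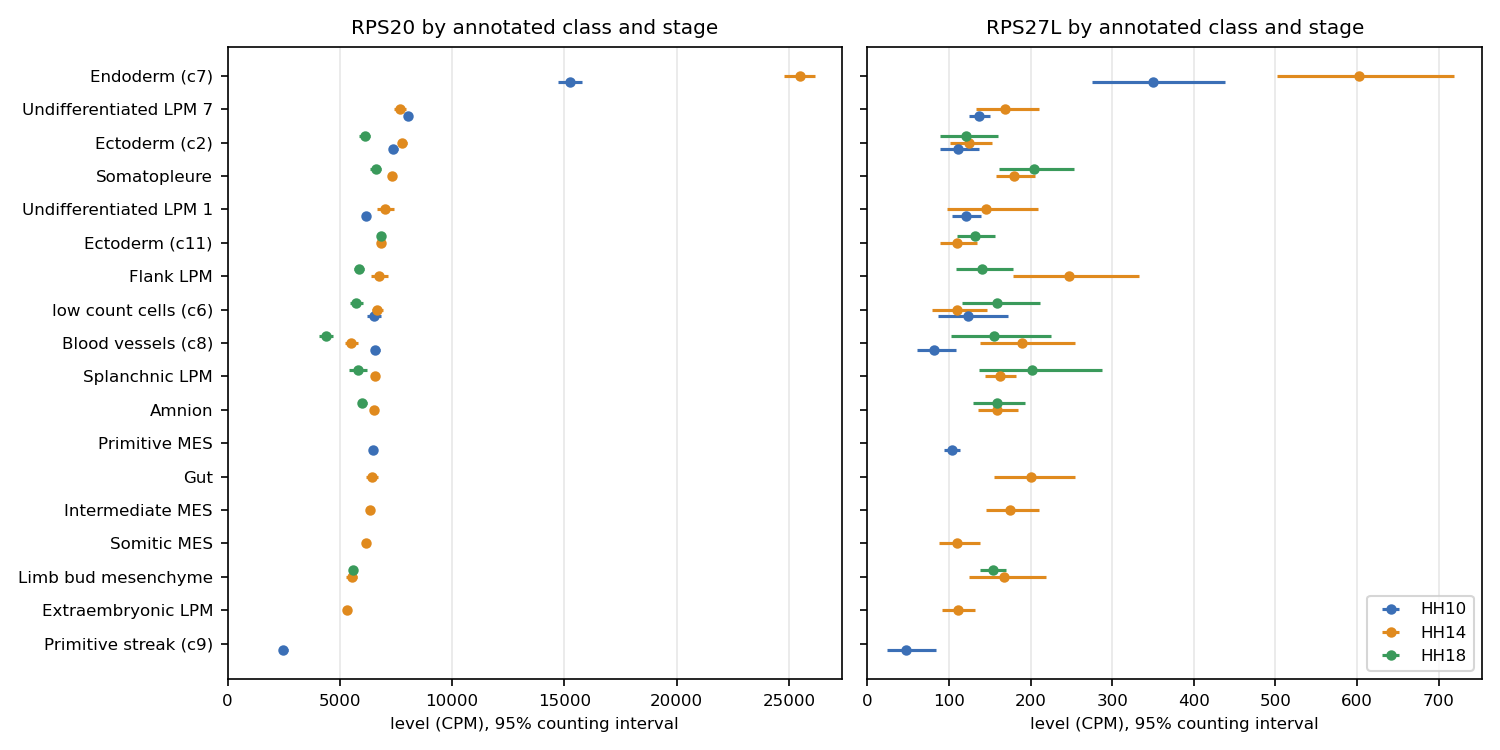
Level (CPM, axis from 0) of RPS20 and of RPS27L in each annotated class with 20 or more cells, by library, with counting intervals. Endoderm lies at 15237 and 25480.5 CPM for RPS20 and at 349.9 and 603 CPM for RPS27L, to the right of every other class.

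Paralogs were compared with their partner within the same cells. RPL22L1, which can replace RPL22 and binds RNA as RPL22 does, held 35.8% of the summed UMIs of the pair in HH10 lateral plate and limb mesenchyme (35.1 to 36.4), at 1622 CPM. It held 34.3% (33.72 to 34.98) at HH14, at 1424 CPM, and 32.7% (31.9 to 33.5) at HH18, at 1241 CPM. By class its share ran from 25.1% (23.0 to 27.3) in the c2 ectoderm at HH18 to 40.3% (38.9 to 41.7) in amnion at HH14. Within classes of the population it was not lower everywhere. It was 30.4% (27.8 to 33.1) at HH14 and 32.7% (31.7 to 33.6) at HH18 in limb bud mesenchyme, 38.8% at HH10 and 39.7% at HH14 in undifferentiated cluster 1, and 34.6% and 28.9% in cluster 7 at the same stages. Within the c2 ectoderm it was 37.5%, 28.8% and 25.1% at the 3 stages, and in amnion 40.28% and 39.95% at HH14 and HH18, and the intervals of both tissues are far apart at HH18.

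RPS27L held 3.303% of the pair with RPS27 at HH10 (3.06 to 3.56), 4.12% at HH14 and 4.04% at HH18 in the same population, and RPL7L1 7.64%, 8.48% and 9.73% of its sum with RPL7. RPL7L1 had the highest log2 fold of HH18 over HH10 of the members, at 302, 352 and 379 CPM. RPL3L held 0.0221% and 0.0227% of its pair at HH14 and HH18. Short near-identical copies can share reads, so values of RPL22L1, RPS27L and other paralogs carry this uncertainty.

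Depth also changed the order of the members. In lateral plate and limb mesenchyme 42 of 71 members were lower in cells with more than 20000 UMIs than in cells with 2000 to 5000 in all 3 libraries, and 21 were higher in all 3. The shares of all genes lower or higher in this way were not counted, so these counts describe the members only. At HH10 RPLP1 stood at 16289.9 CPM in the shallowest cells and 7427 CPM in the deepest, RPS26 at 8837 and 4319 CPM, and RPS19 at 12233 and 5923 CPM. In the other direction RPS6 stood at 1456 and 2371 CPM and RPL3 at 1840.3 and 2522 CPM. The log2 difference of RPLP1 was -1.13, -1.05 and -1.08 and that of RPS6 0.70, 0.39 and 0.53 at the 3 stages. RPS6 is Z-linked, and male cells of this population were deeper than female cells in each library. Median depth was 7332 and 6507 UMIs in male and female cells at HH10, 7588.5 and 7076 at HH14, and 8803 and 7909.5 at HH18. The part of sex in the difference of RPS6 was not tested.

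Genes that act beside the ribosomal proteins were counted from lists by role. Of 15 measured translation factors and other genes known for the same pyrimidine-run mRNAs, 0 were 25% higher or 20% lower at HH14 than at HH10, and from HH10 to HH18 2 were higher, EIF4B at 1.46-fold (1.27 to 1.69) and HNRNPA1 at 1.41-fold (1.37 to 1.46), and 0 were lower. Their median log2 fold was 0.07, where the members had -0.19. Over all measured genes 34.2% were that much higher and 15.3% lower for this pair of stages, so 2 of 15 higher is below the share of all genes. Of 28 ribosome biogenesis genes 2 were higher and 2 lower at HH18 than at HH10, both below those shares, with UBTF, which activates RNA polymerase I, at 67.1 and 127 CPM and POLR1D, a polymerase subunit, at 334 and 237 CPM. Of 17 growth regulators 4 were higher and 4 lower, against the same 34.2% and 15.3%. MYC, which drives ribosome production, stood at 37.7, 18.4 and 8.17 CPM at the 3 stages, 4.62-fold higher at HH10 than at HH18 (3.11 to 7.08), and EIF4EBP1, a translation repressor under mTOR, at 1294 and 884 CPM at HH10 and HH18.

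Of 69 mitochondrial ribosomal protein genes 12 were lower and 2 higher at HH18 than at HH10, at a median log2 fold of -0.14, against the same 15.3% lower and 34.2% higher over all genes. MRPS18A stood at 160 and 79.8 CPM and MRPL50 at 238 and 132 CPM. FAU, which joins a ubiquitin-like protein to a ribosomal protein and does not match the symbol rule, stood at 2984 and 2721 CPM at HH10 and HH18.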

How the data were processed

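Cells were captured with the 10x Genomics 3' v3.1 chemistry, per the labels' protocols, and processed, per the submitters' processing notes, with Cell Ranger 4.0.0 on build GRCg6a. Unnormalized UMI counts were deposited for every gene and cell, and an annotation with classes, phases and, as percent of UMIs, the mitochondrial and ribosomal shares of each cell. The deposited ribosomal percent, turned back into UMIs and rounded to whole numbers, equalled the sum over all 82 symbols beginning RPL or RPS in 3262 of 3262 cells. Cells carry the authors' finer class, or for 980 cells their first-level class. The quality limits of the authors are not given in the sources used here. No doublet caller was run.

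UMIs were summed by library and class or population and scaled to all UMIs of those cells. Intervals are exact Poisson for levels, conditional binomial for folds and Clopper-Pearson for shares. Genes with 30 or more UMIs in the sums compared were called measured. Lateral plate and limb mesenchyme took in somatopleure and left out amnion, a choice made with the annotation in view. Sums of male and female cells were tested with edgeR 4.0.16, with DESeq2 1.42.0 as an alternative; male and female sums of the same library were paired because they come from the same pool. RefSeq matched 70 members by symbol, and its coordinates were not used, since its assembly is not the authors' build. Scripts were tested on simulated data.

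Genes named are the members highest and lowest in level, between stages and in range over classes, with paralog pairs and genes of known mutant phenotype. The members, lists and rules were chosen with earlier results of these data known, and the Z-linked members were singled out after their values were seen. A further 9 annotation columns were not used. Some single genes are counted in the sums and not reported here by name.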

Additional observations from a re-analysis of the deposited data

How the results depend on the processing

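The log2 ratio of the members' share stayed below 0 under each alternative listed here, but not within every class. For HH14 over HH10 it was -0.10 as reported, -0.0403 over all cells, -0.0981 without haemoglobin and mitochondrial genes in the total, -0.0945 in cells thinned to 2800 UMIs, -0.12 in G1 cells, -0.0806 in male and -0.11 in female cells, and -0.0565 in cells with 5000 to 10000 UMIs. For HH18 over HH14 it was -0.10 as reported, -0.0687 over all cells, -0.0829 as a mean over cells, -0.0976 thinned, -0.13 in G1 cells, -0.11 under 5% mitochondrial UMIs, -0.15 in male and -0.0738 in female cells, and -0.11 at 5000 to 10000 UMIs. For HH18 over HH10 it was -0.206 as reported, -0.11 over all cells, -0.186 as a mean over cells, -0.192 thinned, -0.25 in G1 cells, -0.21 under 5% mitochondrial UMIs, -0.23 in male and -0.18 in female cells, and -0.17 at 5000 to 10000 UMIs. The cause of these shifts was not tested. By class, the log2 ratio for HH14 over HH10 was 0.06 (0.04 to 0.07) in undifferentiated cluster 1 and -0.04 in cluster 7.

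Counts of members past the marks of size moved more. Apart from 2-fold, the shares of all genes past the marks were not counted under these settings, so the counts describe the members only. For HH14 over HH10, 0 higher became 2 as a share of the members' UMIs and 1 over all cells or in male cells, and 3 lower became 6 with median-of-ratios scaling, 1 as a share of the members' UMIs, over all cells, in G1 cells, in male cells or at 5000 to 10000 UMIs, and 0 at 1.5-fold or 2-fold. For HH18 over HH14, 0 higher became 1 as a share of the members' UMIs or in male cells, and 0 lower became 6 with median-of-ratios scaling, 1 with the total without haemoglobin, mitochondrial and member genes or thinned, 2 in G1 cells, 4 in male cells and 7 at 5000 to 10000 UMIs. For HH18 over HH10, 1 higher became 0 with median-of-ratios scaling, with the reduced total, at 1.5-fold or 2-fold, thinned or in G1 cells, 5 as a share of the members' UMIs and 3 at 5000 to 10000 UMIs, and 9 lower became 36 with median-of-ratios scaling, 19 with the reduced total or in G1 cells, 0 as a share of the members' UMIs or at 1.5-fold or 2-fold, 3 over all cells, and 14 in male cells or at 5000 to 10000 UMIs.

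The range of the share over classes at HH10 was 15.2 points, 15.7 as a mean over cells, 15.9 thinned and 3.84 without the primitive streak class. It was 6.12 points at HH14 and 7.24 as a mean over cells, and 2.55 points at HH18, 3.63 as a mean over cells and 3.67 thinned. Thinned, RPL22L1 held 34.9% and 32.6% of its pair at HH10 and HH14. No paired analysis was possible because each stage has 1 library; this holds for the comparisons of stages. In the comparison of sexes the sums of a library are paired, and without the library as a block 3 members in place of 4 were higher in male cells. Leaving out each library in turn left 4 higher, and gave 0 to 4 lower, with 4 lower without the HH10 library; RPL17, RPS23, RPS6 and RPL37 were the members called higher with DESeq2 too. At matched depth in 4 ranges RPLP1 and RPS15 were 20% lower at HH18 than at HH10 in 0 of 4. The sex, depth range and class alternatives and those of the sex comparison were chosen after seeing the data. The planned search for pyrimidine runs was not run, since no promoter sequence was used here. Intervals cover counting error only, and with 1 pool a stage the spread between embryos is unknown.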
